A study of Mus musculus with 6 samples.

Results

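The genes described here encode the unfolded protein response and the chaperones and enzymes that the endoplasmic reticulum (ER) uses to fold, move and destroy proteins. The members were given as a list of 37 gene symbols, grouped by function, with no measured value in the rule, although earlier results of these data were known when the list was proposed. Of these symbols, 36 matched a gene in the count table, out of 55401 genes in all, and the remaining symbol, Vimp, is a former name of Selenos. They comprise 11 luminal chaperones and co-chaperones, 6 protein disulfide isomerases, 9 genes of ER-associated degradation, 4 stress sensors and transcription factors, 4 genes of translocation into the ER and 2 other ER genes.

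RNA was sequenced in bulk from mouse T cells cultured with 1 of 2 macrophage supernatants, to ask whether the soluble factors of the macrophages change the T cells. In the control group the T cells received supernatant from macrophages left untreated (3 samples), and in the NFL group they received it from macrophages stimulated with neurofilament light chain (NFL), part of the cytoskeleton of nerve fibres (3 samples). In both groups the T cells came from mouse spleen by bead selection on CD8a, the macrophages were CD11b-selected spleen cells grown for 7 days in 50 ng/mL M-CSF, and the supernatant was 50% of a medium with 2% serum. By the design text, the NFL stimulus was 5 µg/mL for 24 h, prepared from a sciatic nerve lysate by freezing and thawing. The methods of the paper instead name a commercial NFL protein for tumour treatment, give lower NFL concentrations for cell culture, and treat nerve lysate as a separate agent, so that which preparation these macrophages received is not settled. The paper describes its mice as young adult females of the C57BL/6 and NOD-SCID strains, without saying which gave the spleen cells of these cultures, and nothing says whether the samples of a group came from separate animals or cultures, so p-values measure only the spread between these samples.

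The total count per library was 15843045 to 24639756, at which a floor of 3 counts equals 0.122 to 0.189 CPM, the counts scaled to library size. The T-cell markers were only partly present. Thy1 lay at 1575 to 1709 CPM and Trbc1 at 341.0 to 377.4 CPM, whereas Cd8a lay at 3.20 to 4.46 CPM, Cd8b1 at 0.870 to 1.57 CPM and Cd4 at 23.3 to 27.6 CPM, and Cd2 and Cd5 were at 0 in every library. The label of CD8-selected T cells was therefore not borne out by Cd8a and Cd8b1, and the cells are called T cells below as in the labels. Plasma cells, which hold unusually large amounts of ER, were represented by 8 markers, of which 7 stayed below 1 CPM and Prdm1 lay at 27.6 to 32.6 CPM. Their summed level was 29.6 to 33.1 CPM in the control libraries and 28.5 to 33.1 CPM in the NFL libraries. The 6 B-cell markers summed to 12.1 to 13.2 CPM in control and 11.6 to 14.1 CPM in NFL, with Ms4a1 and Ighm at 0. Most of this sum came from Pax5 (8.57 to 10.6 CPM), with Cd79a at 1.26 to 2.21 CPM and Cd79b at 0.879 to 2.04 CPM. The 10 macrophage markers summed to 39.6 to 45.1 CPM and 39.3 to 41.3 CPM, with C1qa, C1qb, C1qc, Itgam and Mrc1 at 0. Nearly all of this sum came from Cd68 (19.0 to 27.1 CPM) and Apoe (14.2 to 20.1 CPM). Of the 36 markers, only 10 T-cell, 1 plasma-cell, 3 B-cell and 2 macrophage genes had enough counts for the test described below. The share of all genes tested that passed it was 7.00%. Of the tested markers, 2 passed, both lower with NFL: Cd3e (log2 fold change -0.28, edgeR adjusted p = 5.7e-04) and Cd68 (-0.26, edgeR adjusted p = 0.0494). The part of these shifts in the results was not tested.

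Proteins that are secreted or placed in membranes enter the ER through the Sec61 channel, are folded there with the help of chaperones such as BiP, and are sent back to the cytosol for destruction when folding fails. When unfolded proteins accumulate, the sensors IRE1, PERK and ATF6 respond: IRE1 splices the Xbp1 mRNA, PERK slows translation by phosphorylating eIF2α, and ATF6 is cut to release a transcription factor. XBP1 and ATF6 then raise chaperone genes through the ER stress response element of their promoters. In T cells this response accompanies the large rise in protein synthesis that follows activation. Gene-level counts measure neither the splicing of Xbp1 mRNA nor phosphorylation nor cleavage, so only the transcript levels of the sensors are reported.

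Promoters were read from RefSeq (GRCm38.p6), as windows of 250 bases before and 50 bases after the start of each gene, for 30 of the 36 members. Hyou1, Manf, Derl1, Atf6, Sec61a1 and Ssr2 had no entry. The ER stress response element, searched on both strands as CCAAT, 9 bases of any kind and CCACG, lay in 9 of these 30 windows (30.0%), against 37 of 27025 genes with a window (0.137%). In 6 of the 10 matches it lay on the strand of the gene and in 4 on the opposite strand, between 26 and 212 bases upstream of the start. The members were chosen as genes of the unfolded protein response and its chaperones, so a high share is no independent result. The 10 matches are printed here because the element is far more frequent among these members than among all genes. Each is written on the strand that carries CCAAT, with 10 bases on either side and the conserved ends CCAAT and CCACG in capitals.

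Hspa5 (chr2:34772015-34772053, plus strand): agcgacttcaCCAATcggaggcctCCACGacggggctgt
Hsp90b1 (chr10:86705628-86705666, minus strand): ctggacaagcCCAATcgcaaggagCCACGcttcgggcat
Hsp90b1 (chr10:86705523-86705561, plus strand): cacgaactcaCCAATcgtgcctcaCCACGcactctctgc
Dnajc3 (chr14:118937817-118937855, plus strand): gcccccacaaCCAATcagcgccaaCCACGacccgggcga
Calr (chr8:84847065-84847103, plus strand): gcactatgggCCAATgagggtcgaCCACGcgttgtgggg
Canx (chr11:50325790-50325828, minus strand): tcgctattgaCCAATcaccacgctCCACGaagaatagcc
Creld2 (chr15:88819510-88819548, minus strand): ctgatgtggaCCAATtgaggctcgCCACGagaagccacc
Pdia6 (chr12:17266481-17266519, plus strand): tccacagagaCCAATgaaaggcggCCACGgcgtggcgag
Syvn1 (chr19:6046522-6046560, plus strand): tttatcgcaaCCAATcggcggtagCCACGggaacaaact
Derl3 (chr10:75893232-75893270, minus strand): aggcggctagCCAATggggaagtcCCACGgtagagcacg

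A second form of the element, ATTGG, 1 base and CCACG, lay in the windows of Dnajb11 and Herpud1 (6.67% of members against 0.0444% of all genes). Herpud1 encodes a membrane protein of the degradation complex, and its match is shown with both conserved ends in capitals.

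Herpud1 (chr8:94386367-94386397, plus strand): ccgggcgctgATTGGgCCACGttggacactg

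TGACGTGG was found in the window of Txndc5 only (3.33% against 0.714%). The short end CCACG, which the element itself contains, lay in 24 of 30 windows (80.0%) against 35.5% of all genes. The 250 bases upstream of 2 of the genes that rose with NFL, Calr and Dnajc10, are shown for comparison, each on the strand of its gene. Calr carries the element on the opposite strand, so that it reads as the capitals CGTGG and ATTGG. Neither form of the element was found in the window of Dnajc10, whose upstream bases hold 46.4% G and C against 62.0% for Calr.

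Calr (chr8:84846932-84847181, minus strand): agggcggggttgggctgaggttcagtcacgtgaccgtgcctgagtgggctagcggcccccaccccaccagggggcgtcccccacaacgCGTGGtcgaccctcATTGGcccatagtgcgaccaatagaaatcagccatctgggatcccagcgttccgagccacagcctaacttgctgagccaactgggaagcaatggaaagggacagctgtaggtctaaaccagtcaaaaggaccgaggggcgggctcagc
Dnajc10 (chr2:80315216-80315465, plus strand): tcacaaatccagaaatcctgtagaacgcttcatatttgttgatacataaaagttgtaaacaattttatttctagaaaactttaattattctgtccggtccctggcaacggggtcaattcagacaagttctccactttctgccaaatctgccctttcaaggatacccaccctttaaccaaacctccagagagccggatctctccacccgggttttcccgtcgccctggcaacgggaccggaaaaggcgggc

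Most of the ER folding machinery was expressed at nearly the same level under both supernatants. Of the 36 members, 35 had enough counts to be tested, and 4 passed the threshold (edgeR quasi-likelihood test over 14082 genes, adjusted p under 0.05). Calr, Dnajc10 and Selenos were higher with NFL and Eif2ak3 was lower. Over all genes tested, 7.00% passed, 3.47% higher and 3.53% lower, and the 4 members are 11.4% of the 35 tested, close to that background. The log2 fold changes of the members ran from -0.18 to 0.20 with a median of 0.01, beside a median of -0.00 for all genes, and 21 were positive and 14 negative. With library size alone as the scaling, the median of the members was -0.00. The median size of a member's change, whatever its sign, was 0.0451 on the log2 scale against 0.0898 over all genes tested. All tested members lay at 11.3 CPM or more, and this comparison was not matched for level. The 127 tested genes of other ER lists, described below, had a median size of 0.0492. In bulk RNA, a different number of cells of a type and a different amount of RNA per cell cannot be told apart.

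**Figure D1:**
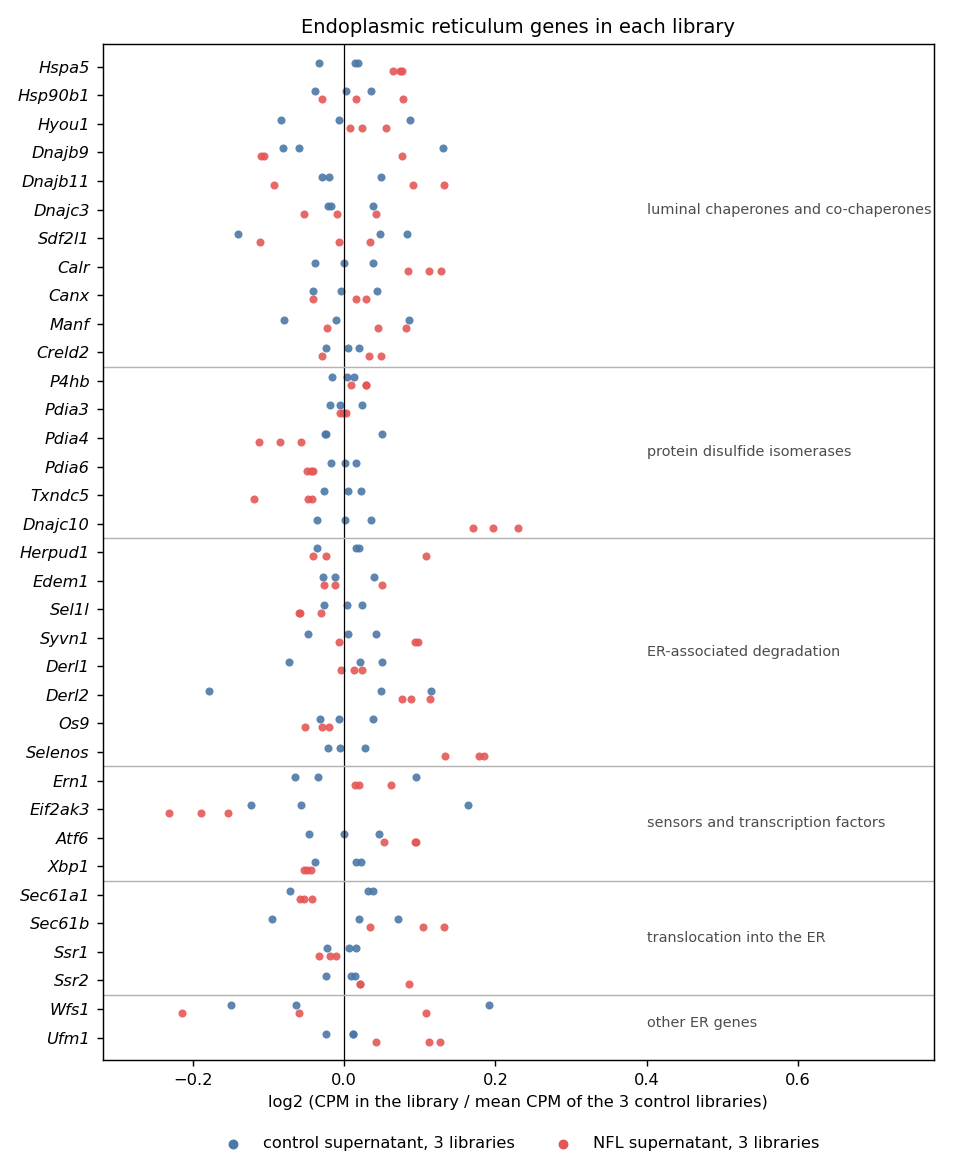
Level of each of the 35 tested genes in each library, as log2 of its CPM over the mean CPM of the 3 control libraries (horizontal axis), with control libraries in blue and NFL libraries in red and the genes ordered by role. The NFL points of Calr, Dnajc10 and Selenos lie to the right of all control points, those of Eif2ak3 lie to the left, and the points of most other genes overlap.

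The 3 NFL libraries lay outside the range of the 3 control libraries for 13 of the 35 members, above it for 7 and below it for 6, against 22.7% of all genes tested. The 95% interval of the change lay within a 1.2-fold difference in either direction for 32 of 35 members, against 49.4% of all genes tested. The exceptions were Dnajc10, Eif2ak3 and Wfs1. Among the 127 tested genes of the other lists described below, 114 lay within this limit. These shares were not matched for the level of the genes. The summed level of the members was 13275 ± 92.8 CPM in control and 13498 ± 120.3 CPM in NFL (SD, n = 3), or 1.33% and 1.35% of all counts.

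**Figure D2:**
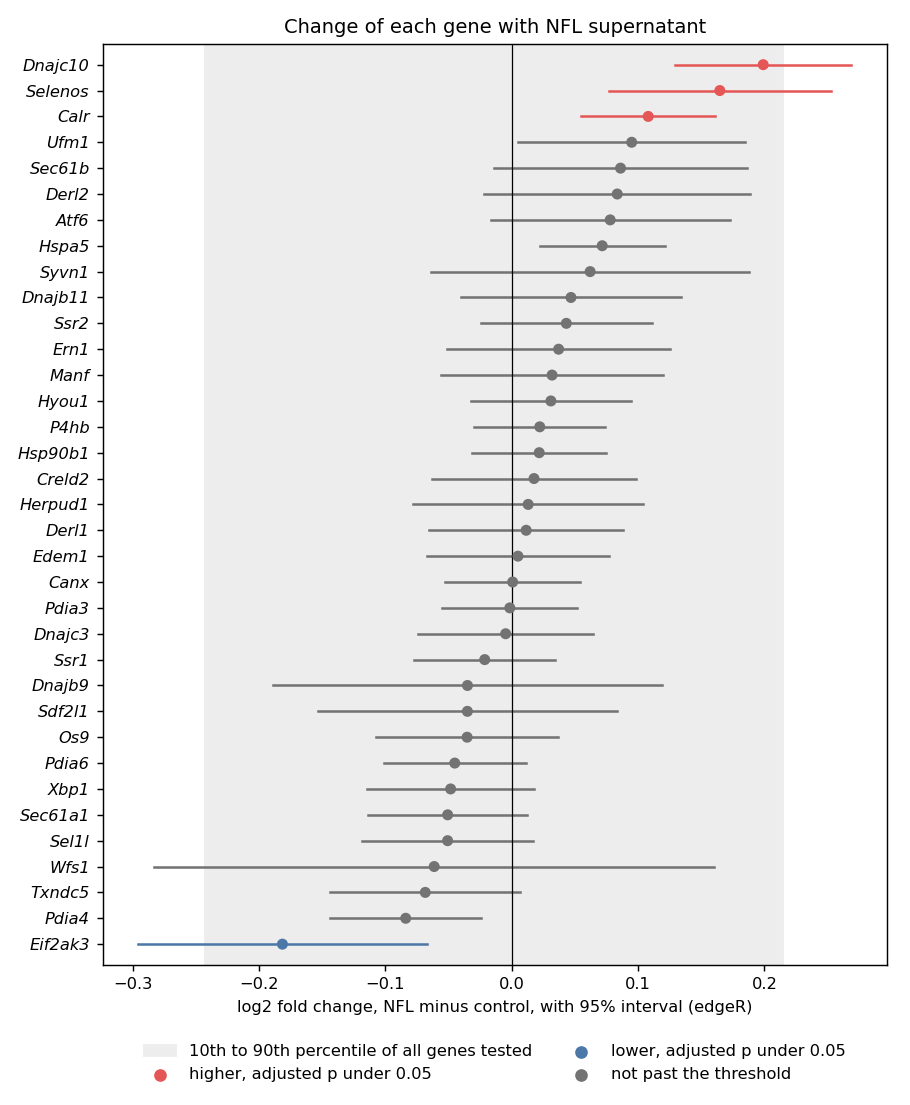
Log2 fold change of each tested gene, NFL minus control, with its 95% interval from edgeR, ordered by size, and the 10th to 90th percentile of all genes tested (-0.24 to 0.22) in grey. Dnajc10, Selenos and Calr passed the threshold upwards (red) and Eif2ak3 downwards (blue), and all 4 estimates lie inside the grey band.

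Among the stress sensors, only the transcript of PERK passed the threshold, and that call did not hold in every alternative analysis. Eif2ak3, which encodes PERK (chr6:70844515-70905245, GRCm38, plus strand), had 61.3, 74.8 and 64.2 CPM in the control libraries and 56.8, 58.5 and 60.0 CPM in the NFL libraries. The NFL libraries were all below the control libraries, and control replicate 2 was well above the other two. The level fell by 0.18 on the log2 scale (SE 0.057, 95% interval -0.30 to -0.07, edgeR adjusted p = 0.0393), from 66.8 ± 7.10 to 58.5 ± 1.60 CPM (SD, n = 3). Without control replicate 2 the log2 fold change was -0.10 and no longer passed (edgeR adjusted p = 0.357). The call was also lost without any one of the NFL libraries, with the DESeq2 Wald test (adjusted p = 0.143) and with limma-voom (adjusted p = 0.0728). Removing trends with GC content and length likewise lost it (log2 fold change -0.16, edgeR adjusted p = 0.0772). Exons of Eif2ak3 overlap those of Gm43292 on the opposite strand, which itself had at most 1.02 CPM.

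The transcripts of the other sensors and of the transcription factor Xbp1 did not pass. Ern1, which encodes IRE1, had 95.6, 104.6 and 93.6 CPM in control and 98.9, 99.2 and 102.2 CPM in NFL. Its groups overlapped, with a log2 fold change of 0.04 (95% interval -0.05 to 0.13, edgeR adjusted p = 0.724). Atf6 had 76.8, 72.0 and 74.3 CPM in control and 79.5, 77.1 and 79.4 CPM in NFL. All NFL libraries lay above the control libraries by a small margin (log2 fold change 0.08, 95% interval -0.02 to 0.17, edgeR adjusted p = 0.391). Xbp1 had 214.2, 213.3 and 205.3 CPM in control and 203.3, 204.5 and 203.9 CPM in NFL. All NFL libraries lay below the control libraries here, again by a small margin (log2 fold change -0.05, 95% interval -0.11 to 0.02, edgeR adjusted p = 0.469).

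Because the sensors differed in sign, their levels were set against each other within each library, as a comparison chosen after the values were seen. The log2 ratio of Eif2ak3 to Atf6 was -0.32, 0.06 and -0.21 in the control libraries and -0.48, -0.40 and -0.40 in the NFL libraries. The log2 ratio of Eif2ak3 to Ern1 was -0.64, -0.48 and -0.54 in control and -0.80, -0.76 and -0.77 in NFL. Both ratios were lower in every NFL library than in any control library (exact two-sided permutation test, p = 0.1, the smallest value that 3 against 3 samples can give, and 0.133 when adjusted over the 4 ratios computed). For Eif2ak3 over Atf6 this outcome was fixed beforehand. Eif2ak3 was lower and Atf6 higher in every NFL library, so the test of that ratio adds nothing. The groups of Ern1 overlapped, so the ratio of Eif2ak3 to Ern1 mostly repeats the separation of Eif2ak3.

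**Figure D3:**
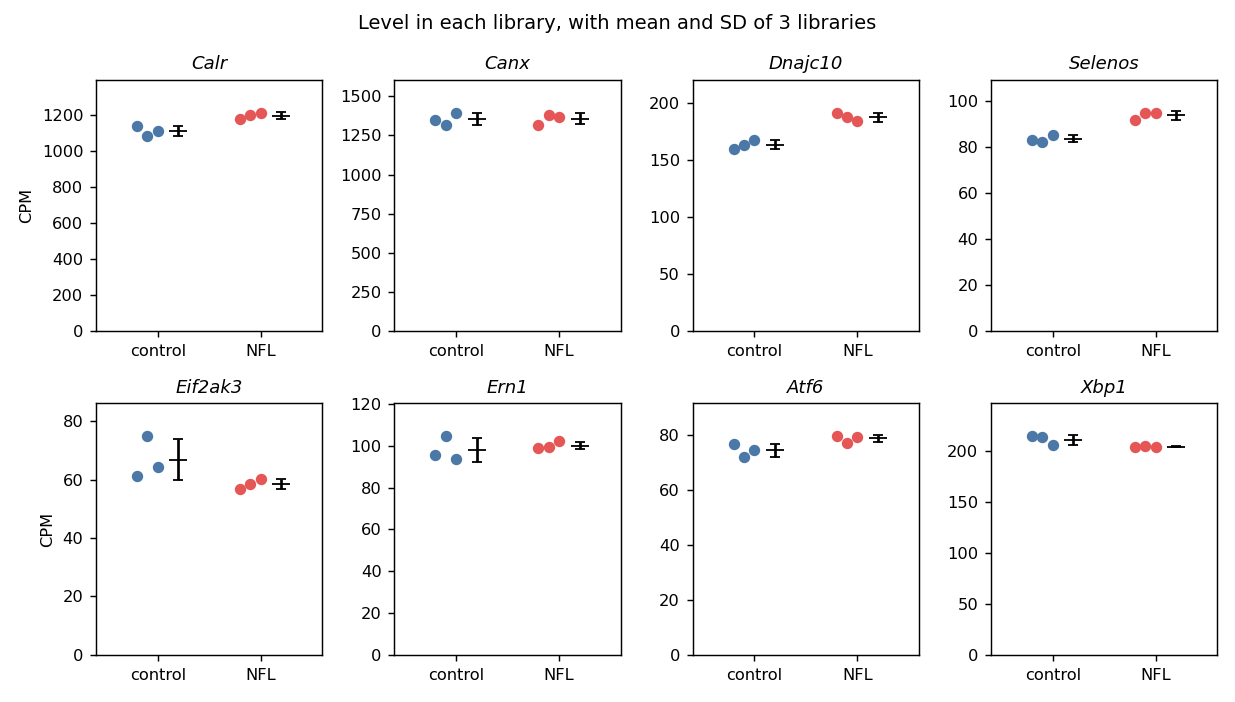
CPM in each library (points) with mean and SD of 3 libraries (black) for the lectin chaperones Calr and Canx, the reductase Dnajc10, Selenos, and the sensors and factor Eif2ak3, Ern1, Atf6 and Xbp1, each on an axis from 0. The shifts of Calr, Dnajc10, Selenos and Eif2ak3 are small against the level of each gene, and control replicate 2 stands highest for Eif2ak3.

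Of the 11 luminal chaperones and co-chaperones, 1 rose with NFL and none fell. Calr encodes calreticulin, a lectin that holds newly glycosylated proteins and stores calcium (chr8:84841850-84846934, GRCm38, minus strand). It had 1140, 1081 and 1110 CPM in the control libraries and 1177, 1200 and 1213 CPM in the NFL libraries. Every NFL library lay above every control library, and the log2 fold change was 0.11 (SE 0.026, 95% interval 0.05 to 0.16, edgeR adjusted p = 0.0055), from 1110 ± 29.7 to 1197 ± 18.5 CPM (SD, n = 3). The call was lost without NFL replicate 3 (edgeR adjusted p = 0.0766). The pseudogene Calr-ps was at 0 in every library.

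Canx, which encodes calnexin, the membrane-bound lectin that works beside calreticulin, had 1350, 1316 and 1396 CPM in control and 1315, 1381 and 1368 CPM in NFL. Its groups overlapped, with a log2 fold change of 0.00 (95% interval -0.05 to 0.05, edgeR adjusted p = 0.994). The log2 ratio of Calr to Canx within a library was -0.24, -0.28 and -0.33 in control and -0.16, -0.20 and -0.17 in NFL, higher in every NFL library (exact two-sided permutation test, p = 0.1, adjusted p = 0.133). This pair was also chosen after its values were seen. Calr alone already separated the groups and Canx hardly differed, so the ratio mostly repeats the result of Calr.

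Hspa5 encodes BiP, the Hsp70 chaperone whose release from the sensors is part of the classical unfolded protein response. It had 2011, 1941 and 2005 CPM in control and 2090, 2076 and 2095 CPM in NFL. The NFL libraries all lay above the control libraries, with a log2 fold change of 0.07 (SE 0.025, 95% interval 0.02 to 0.12) that did not pass (edgeR adjusted p = 0.0659). It did pass with the DESeq2 Wald test (adjusted p = 0.012) and with limma-voom (adjusted p = 0.0087). Hsp90b1, the Hsp90 of the ER, had 1947, 1893 and 1992 CPM in control and 1905, 2052 and 1965 CPM in NFL. These groups overlapped, with a log2 fold change of 0.02 (95% interval -0.03 to 0.07, edgeR adjusted p = 0.732). The log2 ratio of Hspa5 to Hsp90b1 overlapped between the groups (exact two-sided permutation test, p = 0.3).

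The other luminal members were Hyou1, a large Hsp70-like nucleotide exchange factor, the J-domain co-chaperones Dnajb9, Dnajb11 and Dnajc3, and Sdf2l1, Manf and Creld2. None of these 7 genes passed the threshold, the groups of all 7 overlapped, and their log2 fold changes ran from -0.04 to 0.05. Dnajb9, which is among the XBP1 targets, had 28.7 ± 2.37 CPM in control and 27.9 ± 2.11 CPM in NFL (SD, n = 3), and its interval of -0.19 to 0.12 on the log2 scale was the widest of the group. Over all 11 genes, 8 changes were positive and 3 negative, with a median of 0.02. Their summed level was 7458 ± 121.6 CPM in control and 7692 ± 127.4 CPM in NFL (SD, n = 3).

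Protein disulfide isomerases form, shuffle and reduce disulfide bonds. Of the 6 measured here, 1 rose with NFL. Dnajc10 encodes ERdj5, a J-domain protein that reduces disulfide bonds of proteins bound for degradation (chr2:80315466-80354043, GRCm38, plus strand). It had 159.1, 163.3 and 167.2 CPM in the control libraries and 191.5, 187.1 and 183.6 CPM in the NFL libraries. The groups were well apart, and the log2 fold change of 0.20 (SE 0.035, 95% interval 0.13 to 0.27, edgeR adjusted p = 5.7e-05) was the largest among the members, from 163.2 ± 4.04 to 187.4 ± 3.92 CPM (SD, n = 3). It passed in all 15 alternative analyses, with log2 fold changes of 0.18 to 0.22.

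None of the other 5 isomerases passed, with 1 positive and 4 negative changes. Pdia4 had 428.6, 451.5 and 429.0 CPM in control and 419.4, 403.5 and 411.4 CPM in NFL. All NFL libraries lay below all control libraries, but the log2 fold change of -0.08 (95% interval -0.14 to -0.02) did not pass (edgeR adjusted p = 0.0781). Pdia6 (log2 fold change -0.05) and Txndc5 (-0.07) likewise had every NFL library below every control library without passing (edgeR adjusted p = 0.411 and 0.323). P4hb, the classical protein disulfide isomerase, and Pdia3, which acts on glycoproteins with calreticulin and calnexin, overlapped between groups with log2 fold changes of 0.02 and -0.00. The median change of the 6 genes was -0.02, and their summed level was 3202 ± 30.9 CPM in control and 3195 ± 8.13 CPM in NFL (SD, n = 3).

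ER-associated degradation returns misfolded proteins to the cytosol for the proteasome. Of its 8 tested genes, 1 rose with NFL. Selenos encodes selenoprotein S, a membrane protein that links the derlins to the ATPase p97 (chr7:66079649-66089405, GRCm38, plus strand). It had 83.1, 82.2 and 85.0 CPM in control and 91.5, 94.5 and 94.8 CPM in NFL. All NFL libraries lay above all control libraries, with a log2 fold change of 0.16 (SE 0.044, 95% interval 0.08 to 0.25, edgeR adjusted p = 0.0117), from 83.4 ± 1.44 to 93.6 ± 1.82 CPM (SD, n = 3). The call was lost without NFL replicate 2, NFL replicate 3 or control replicate 1, with adjusted p-values of at most 0.0838.

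The remaining degradation genes cover mannose trimming and recognition (Edem1, Os9), the ubiquitin ligase and its partner (Syvn1, Sel1l), the derlins Derl1 and Derl2, and Herpud1. None passed, and their log2 fold changes ran from -0.05 to 0.08. Sel1l was the 1 gene of these 7 whose groups did not overlap, with 183.3 ± 3.18 CPM in control and 177.1 ± 2.03 CPM in NFL (SD, n = 3, log2 fold change -0.05, edgeR adjusted p = 0.456). Derl3, a derlin known from secretory cells, was at 0 to 0.453 CPM and was not tested.

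For translocation into the ER, 0 of the 4 genes passed with edgeR, the DESeq2 Wald test or limma-voom, and 0 had an unadjusted p under 0.05 with edgeR. Ssr2, a subunit of the translocon-associated complex, had all NFL libraries above the control libraries (190.0 ± 2.69 against 195.8 ± 5.05 CPM, SD, n = 3, log2 fold change 0.04, edgeR adjusted p = 0.544). The groups of Ssr1 (log2 fold change -0.02) and of the channel subunits Sec61a1 (-0.05) and Sec61b (0.09) overlapped. Ufm1, a ubiquitin-like modifier attached to ribosomes at the ER, had 82.6 ± 1.19 CPM in control and 88.2 ± 2.73 CPM in NFL (SD, n = 3), with no overlap and no call (log2 fold change 0.09, edgeR adjusted p = 0.225). Wfs1, an ER membrane protein, lay at 11.3 to 14.9 CPM, and its interval of -0.28 to 0.16 on the log2 scale includes a fall of the size seen in Eif2ak3.

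Levels between genes were compared per kilobase of annotated exon. On this scale Hsp90b1 (482.2 CPM per kb in control, 489.6 in NFL) and Hspa5 (469.5 and 493.5) were the most abundant members, followed by P4hb (386.2 and 392.1), Calr (385.5 and 415.6), Canx (288.5 and 288.7) and Pdia3 (267.5 and 267.2). Hsp90b1 stood above Hspa5 in the control mean and below it in the NFL mean, and P4hb and Calr changed places likewise. The means of Hsp90b1 and Hspa5 differed by less than their combined SD in both groups, and so did those of P4hb and Calr in control (386.2 ± 4.08 and 385.5 ± 10.3 CPM per kb, SD, n = 3). That SD takes no account of both genes being measured in the same libraries, so it cannot decide their order. The sensors stood far lower, with Ern1 at 12.0 and 12.3, Eif2ak3 at 11.1 and 9.70 and Atf6 at 8.06 and 8.52 CPM per kb, whereas Xbp1 was at 64.9 and 62.8. This low range was not particular to the sensors. It also held Dnajb9 (11.3 and 10.9), Derl2 (9.20 and 9.81) and Syvn1 (8.15 and 8.51 CPM per kb). Wfs1 was the lowest tested member, at 3.46 and 3.34 CPM per kb. Exon lengths come from GENCODE M21 and count all annotated exons, so a gene with long unused exons appears lower.

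**Figure D4:**
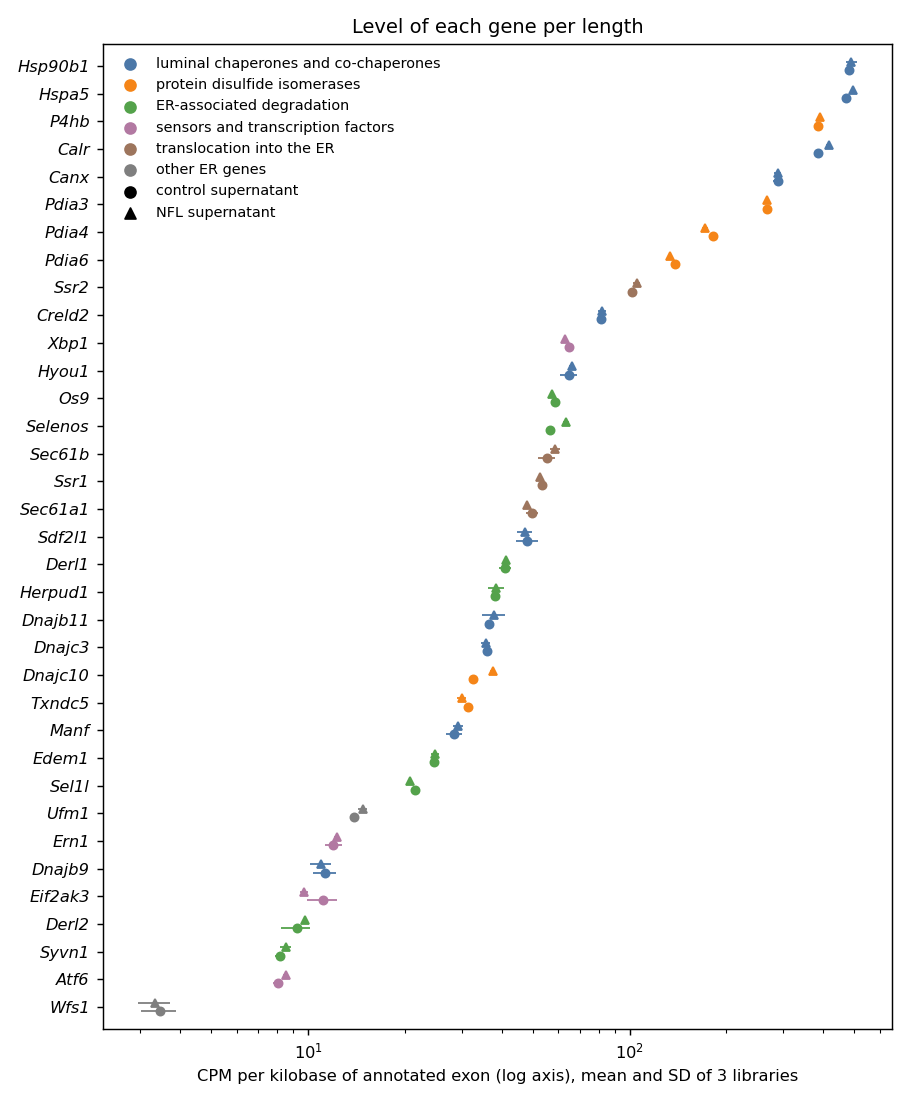
Level per kilobase of annotated exon (log axis) of the 35 tested genes, as mean and SD of 3 libraries, with circles for control, triangles for NFL and colour for role. Chaperones and disulfide isomerases fill the top of the scale from 482.2 CPM per kb downwards, and Ern1, Eif2ak3 and Atf6 lie near its lower end at 8.06 to 12.0 CPM per kb in control. The co-chaperone Dnajb9 and the degradation genes Syvn1 and Derl2 lie in the same low range.

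The calls were spread over members with and without the promoter element. Of the 9 members with the ER stress response element, 8 were tested and 1, Calr, passed, with log2 fold changes of -0.05 to 0.11, a median of 0.02 and 6 of 8 positive. Of the 21 tested members whose window lacked it, 3 passed, with log2 fold changes of -0.18 to 0.20 and a median of -0.00. Of the 28 other genes with the element, 10 were tested under the symbol that the promoters carry. Of these, 0 passed with edgeR, the DESeq2 Wald test or limma-voom, and 0 had an unadjusted p under 0.05 with edgeR. Their median log2 fold change was 0.04. Ero1b, another of the 28, stands in the counts as Ero1lb and was missed in this comparison. Its NFL libraries all lay above the control libraries (log2 fold change 0.12, edgeR unadjusted p = 0.0498, adjusted p = 0.259). Former symbols of the rest were not searched. A match to these letters describes the sequence and is no evidence of binding.

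Other genes of the same pathways were taken from lists of 139 symbols, of which 133 matched and 127 were tested. They held 4 genes that rose and 3 that fell, or 5.51% beside the 7.00% of all genes, with a median log2 fold change of 0.01. The changes belonged to different steps. In the translocation list, 2 of 19 tested genes rose. Sec11c, a catalytic subunit of signal peptidase, had 260.5, 227.3 and 250.2 CPM in control and 296.8, 286.2 and 289.0 CPM in NFL. Its groups were apart, with a log2 fold change of 0.24 (SE 0.035, edgeR adjusted p = 2.2e-06). Sec61g, the small subunit of the Sec61 channel, had 79.0, 72.4 and 79.8 CPM in control and 90.6, 83.9 and 95.6 CPM in NFL (log2 fold change 0.22, SE 0.049, edgeR adjusted p = 0.0019). In this list 15 of 19 changes were positive and the median was 0.06, against -0.00 over all genes. The NFL libraries lay outside the control range for 8 of the 19 genes, above it for 7 and below it for 1, against 22.7% of all genes tested.

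In the list of PERK and the integrated stress response, 1 of 10 tested genes rose. Eif2s1, which encodes the eIF2α subunit that PERK phosphorylates, had 403.7, 383.9 and 389.1 CPM in control and 434.7, 447.2 and 458.9 CPM in NFL. All NFL libraries lay above, with a log2 fold change of 0.19 (SE 0.030, edgeR adjusted p = 1.1e-05), opposite in sign to that of Eif2ak3. The downstream genes of this arm did not pass. The factor Atf4 went from a mean of 470.5 CPM in control to 482.8 CPM in NFL, a log2 fold change of 0.04 (edgeR adjusted p = 0.565), Ddit3, which encodes CHOP, had 7.97 to 10.4 CPM and a log2 fold change of 0.11 (edgeR adjusted p = 0.703), and Ppp1r15a, which encodes the eIF2α phosphatase subunit GADD34, had 0.06 (edgeR adjusted p = 0.787). Cebpb, Atf3 and Vldlr were too low to test.

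Among 22 other folding genes, Erp44, which retains proteins in the early secretory pathway, rose (log2 fold change 0.14, SE 0.040, edgeR adjusted p = 0.0222), and Sdf4, a calcium-binding protein of the Golgi, fell by 0.11 on the log2 scale (SE 0.032, edgeR adjusted p = 0.03). Among 23 other degradation genes, Edem2, which starts mannose trimming, fell by 0.10 (SE 0.033, edgeR adjusted p = 0.0471). Among 19 genes of ER exit and retrieval, Sec24a, a cargo-binding coat subunit, fell by 0.16 (SE 0.041, edgeR adjusted p = 0.0096). The 16 genes of N-glycosylation, the 11 of ATF6 processing and related factors and the 7 of UFMylation held 0 calls with edgeR, the DESeq2 Wald test or limma-voom, and 3, 2 and 0 genes at an unadjusted p under 0.05 with edgeR. Of the 7 called genes, Sdf4 and Edem2 passed in only 7 and 6 of 15 alternatives, and Erp44 in 10.

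**Figure D5:**
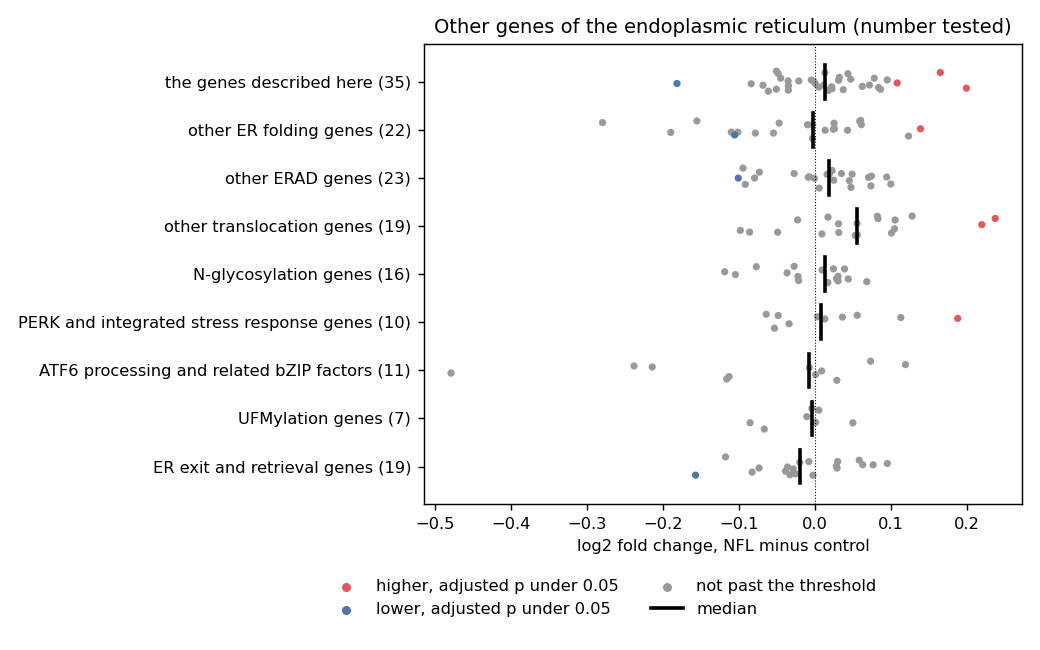
Log2 fold change, NFL minus control, of the tested genes in each list, with the number tested in brackets, genes past the threshold in red (higher) or blue (lower), and the median of each list as a black bar. Points past the threshold stand in 5 of the 8 added lists, and the medians run from -0.02 to 0.06.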

How the data were processed

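The authors deposited raw read counts per gene, whole numbers without normalization, for 6 libraries of poly(A)-selected RNA, 1 column per sample. The submitters' processing notes name R 4.2.1, limma 3.54.2 and the genome build GRCm39. Neither an aligner nor a counting program nor a strand setting is named; they are not given in the sources used here. Of the 55401 gene identifiers, 54349 were identical in version to GENCODE M21 (GRCm38), and symbols were found for 55141. Gene coordinates are given in GRCm38, and only where the version was identical, which left out Pdia6 and Xbp1. Exons of 12 members overlap another annotated gene, and how such reads were counted is not stated. Rows naming no gene numbered 0.

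Counts were analysed in R 4.3.3. Genes kept by filterByExpr (minimum count 10, minimum total 15) were scaled by TMM and tested with the quasi-likelihood test of edgeR 4.0.16, with Benjamini-Hochberg adjustment over 14082 genes and a threshold of 0.05. CPM values were computed from the TMM-scaled library sizes. Single ratios were tested by exact permutation, and promoter sequences came from RefSeq (GRCm38.p6). The alternatives were size factors of DESeq2 1.42.0 and its Wald test, limma-voom (limma 3.58.1), library size alone, other filters, thinned counts, the replicate number as a block, and each library left out. A further alternative, chosen after seeing the data, removed trends with GC content and length. The scripts were tested on simulated data with known changes. Of 50 changes each, 7 passed at 1.1-fold, 31 at 1.25-fold, 43 at 1.5-fold and 49 at 2-fold, beside 9 false calls. The changed genes were drawn without regard to the levels of the members. Every simulated gene was given the same spread between libraries, so differences in spread between real genes were left out. The counts of passing and false calls therefore do not carry over to the real data. The members follow a list of functions with no measured value in its rule, but members, lists and alternatives were chosen with earlier results of these data known. Named in full are members past the threshold, the sensors and factors, Hspa5, Hsp90b1 and Calr, and, of the other lists, genes past the threshold and Atf4, Ddit3 and Ppp1r15a. Other genes named with values were chosen after these were seen. Proteins were not analysed here.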

Additional observations from a re-analysis of the deposited data

How the results depend on the processing

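The members past the threshold numbered 4 in the main analysis, 3 to 5 under the 9 alternatives that kept every library, and 1 to 4 when 1 library was left out, with 2 left without NFL replicate 2 (Calr, Dnajc10) and 1 without NFL replicate 3 (Dnajc10). Dnajc10 passed in 15 of 15 alternatives, Calr in 14, Selenos in 12, Eif2ak3 in 8 and Hspa5 in 3, and Pdia4 passed only with library size alone (adjusted p = 0.0313). The genes of the other lists numbered 7, 5 to 9 with every library and 4 to 7 with 1 left out (4 without NFL replicate 2 and 4 without NFL replicate 3). Over all genes 986 passed, 605 with the DESeq2 Wald test, which tested fewer genes (11072), and 508 to 966 with 1 library left out (616 without NFL replicate 2, 508 without NFL replicate 3). Library size alone gave 372 higher and 600 lower genes in place of 489 and 497, a shift of the median by under 0.02 on the log2 scale. With 1 library left out, Hsp90b1 ran from -0.0038 to 0.049 and Ppp1r15a from -0.0099 to 0.093 on the log2 scale, so that their signs are not fixed. Same-numbered samples did not deviate together (correlations of 0.0147, 0.0097 and 0.0053), although each sample correlated best with its own number, which is a hint from the data and not the design. With the replicate block 1049 genes passed, with 5 members (Hspa5 added) and 8 genes of the other lists. The causes of these differences were not tested. With 3 samples a group, exact tests cannot go below p = 0.1. At these depths Derl3 could not be tested, and transcripts say nothing of protein levels, Xbp1 splicing or phosphorylation.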
